A study of Mus musculus with 4 samples.

Results

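The transcripts followed here were those of 9 genes that mark or shape the biliary epithelium of the liver, and they were followed in biliary epithelial cells (BECs), hepatocytes (HCs) and the other cells of 4 mouse livers. They were the keratins Krt7, Krt8, Krt18, Krt19 and Krt23, the adhesion molecule Epcam, the claudin Cldn7 and the transcription factors Sox9 and Sox4. The genes were taken by symbol, each matched 1 gene of the annotation, and together they were 9 of the 55488 genes counted. Of all genes, 32950 had at least 1 molecule in the cells used.

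Single-cell RNA sequencing was done with the 10x 3' method on 4 libraries, each made from the liver of 1 mouse. The genotypes were wildtype (WT), YAPKO, TAZKO and DKO, the last lacking both genes. In the knock-out mice, floxed alleles of Yap1 (YAPKO), of Wwtr1, the gene of TAZ (TAZKO), or of both were recombined by a Cre recombinase driven by the albumin promoter, which acts in HCs and BECs, whereas all other liver cells kept intact alleles. The sample labels gave no age. HCs and non-parenchymal cells (NPCs) were isolated separately, without the gall bladder, and mixed before loading, so that the shares of cell types followed the mixing. The comparison asked how the genes of biliary fate behaved when YAP, TAZ or both were missing from the liver epithelium.

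The WT library held 13657 barcodes with 66259687 counted molecules (UMIs), and 7155 cells with a median of 4618 UMIs were kept. The YAPKO library held 7711 barcodes with 85989454 UMIs and gave 6275 cells with a median of 7337. From the TAZKO library, with 14418 barcodes and 49022089 UMIs, 8638 cells with a median of 3555.5 UMIs were kept, and from the DKO library, with 9188 barcodes and 77411746 UMIs, 8294 cells with a median of 5952.5. Libraries shared few barcodes. Among the kept cells, WT shared 9 with YAPKO, 26 with TAZKO and 13 with DKO, YAPKO shared 16 with TAZKO and 9 with DKO, and TAZKO and DKO shared 23.

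The level of a gene in a group of cells is given as CPM, its share of all UMIs of that group on a scale where 1% is 10000 CPM. Bracketed ranges are 95% intervals, by Poisson for levels, by the conditional binomial for log2 ratios to WT and by Clopper-Pearson for shares of cells, and they cover counting error only. As each genotype was represented by 1 mouse, no difference has a replicate check, no test was made, and each comparison is between libraries, with the same WT library in all 3. CPM is not scaled to transcript length, so that levels are compared between groups of cells and not between genes.

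Keratins form the intermediate filaments of epithelial cells, in which a type I keratin always pairs with a type II keratin. HCs use the simple pair of Krt8 and Krt18, whereas the cells that line bile ducts add Krt7 and Krt19 and are joined by Epcam and by claudins that seal their tight junctions. Sox9 and Sox4 guide the formation of bile ducts in the embryo, and Sox9 is also known from periportal HCs and from HCs that take on ductal traits after injury.

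In GRCm38 (GENCODE vM21), the type II keratin genes Krt7 (ENSMUSG00000023039, 101411043 to 101430313, plus strand) and Krt8 (ENSMUSG00000049382, 101996698 to 102004482, minus strand) lie on chromosome 15. Krt18 (ENSMUSG00000023043, chromosome 15, 102028180 to 102032027, plus strand), although a type I keratin, lies beside Krt8 on the same chromosome, with 23697 bases between them. The other type I keratins are on chromosome 11, Krt23 (ENSMUSG00000006777) from 99477974 to 99493137 and Krt19 (ENSMUSG00000020911) from 100140810 to 100148665, both on the minus strand and 647672 bases apart. The same chromosome holds Cldn7 (ENSMUSG00000018569, 69964779 to 69967885, plus strand) and Sox9 (ENSMUSG00000000567, 112782224 to 112787760, plus strand). Epcam (ENSMUSG00000045394) is on chromosome 17 from 87635979 to 87651129, plus strand, and Sox4 (ENSMUSG00000076431) on chromosome 13 from 28948919 to 28953713, minus strand. Krt7, Krt8 and Sox4 each overlap 1 annotated gene on the other strand, and no member overlaps a gene on its own strand.

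The promoters of Krt8 and Krt18, the keratin pair of HCs, and of Krt23 and Cldn7 are shown. Of the measured members, Krt23 and Cldn7 had the largest ratios to WT in the HCs of YAPKO and DKO, but not of TAZKO. The sequences run from 250 bases before to 50 bases after the start of the transcript, from RefSeq on GRCm38.p6. The windows are chr15:102004293-102004592 (minus strand) for Krt8, chr15:102027966-102028265 (plus strand) for Krt18, chr11:99493071-99493370 (minus strand) for Krt23 and chr11:69964529-69964828 (plus strand) for the first of the 2 Cldn7 starts. Capitals mark matches to the searched motifs on either strand.

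Krt8: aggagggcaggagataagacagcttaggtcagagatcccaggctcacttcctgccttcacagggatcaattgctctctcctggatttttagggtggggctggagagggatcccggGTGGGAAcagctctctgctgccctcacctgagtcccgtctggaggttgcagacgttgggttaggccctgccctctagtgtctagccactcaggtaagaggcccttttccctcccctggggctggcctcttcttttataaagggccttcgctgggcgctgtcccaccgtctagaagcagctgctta

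Krt18: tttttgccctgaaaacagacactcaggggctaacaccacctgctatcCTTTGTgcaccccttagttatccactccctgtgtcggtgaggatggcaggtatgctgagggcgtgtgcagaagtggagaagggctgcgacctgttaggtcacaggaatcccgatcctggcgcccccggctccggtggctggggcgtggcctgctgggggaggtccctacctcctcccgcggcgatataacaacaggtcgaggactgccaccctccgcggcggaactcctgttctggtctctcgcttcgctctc

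Krt23: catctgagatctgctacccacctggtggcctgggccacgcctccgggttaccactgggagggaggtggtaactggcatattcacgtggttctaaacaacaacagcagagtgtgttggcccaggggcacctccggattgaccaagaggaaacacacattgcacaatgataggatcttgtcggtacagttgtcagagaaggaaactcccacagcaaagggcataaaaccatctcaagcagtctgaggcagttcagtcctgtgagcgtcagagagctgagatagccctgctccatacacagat

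Cldn7: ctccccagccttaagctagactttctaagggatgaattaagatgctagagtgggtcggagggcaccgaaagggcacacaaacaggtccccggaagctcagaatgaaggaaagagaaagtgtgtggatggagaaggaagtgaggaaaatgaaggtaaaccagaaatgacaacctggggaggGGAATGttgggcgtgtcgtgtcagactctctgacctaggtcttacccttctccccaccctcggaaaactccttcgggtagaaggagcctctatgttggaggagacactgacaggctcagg

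Among the letters searched on both strands were GGAATG (the core bound by TEAD factors, the DNA-binding partners of YAP and TAZ), TGANTCA (AP-1), GTGGGAA (the core of RBPJ, the Notch effector), ACAAAG (the SOX core) and AACNGGTT (GRHL). The promoter table used held 8 windows for 7 of the members and no entry for Krt19 and Sox9. GGAATG was in 2 of these 8 windows, 70 bases before the Cldn7 start and 168 bases before the Sox4 start, and in 14.7% of all 32851 promoters. GTGGGAA was in the Krt8 window, 135 bases before the start, and in 6.38% of all promoters. ACAAAG was in the Krt18 window, 203 bases before the start, and in 18.7% of all. The AP-1 and GRHL letters, found in 7.81% and 2.09% of all promoters, were in none of the 8 windows. A match describes the letters and is not a binding site.

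Yap1 and Wwtr1 were read first, as a check of the labels. In the HCs, Yap1 was 21.2 CPM in WT, 4.56 in YAPKO, 46.3 in TAZKO and 4.67 in DKO, and Wwtr1 was 5.58, 13.6, 3.27 and 2.89 CPM in the same order. In the BECs, Yap1 was 39.3 CPM in WT, 13.4 in YAPKO, 56.7 in TAZKO and 12.7 in DKO (1 UMI), and Wwtr1 was 68.7, 58.0, 63.4 and 25.4 CPM. Yap1 was thus lowest in the libraries labelled YAPKO and DKO in both cell types. Wwtr1 in the HCs was lowest in the libraries labelled TAZKO and DKO, whereas in the BECs of TAZKO the difference from WT was within counting error (log2 -0.12, -0.98 to 0.70). Because a 3' tag can lie outside the recombined part, transcripts from a recombined allele may still be counted.

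BECs were the cells of cluster 20, found with the 9 members left out of the clustering. Of 14 biliary markers that include no member, 13 were raised in this cluster, and 14 of 14 had UMIs in WT, YAPKO and DKO and 13 in TAZKO. Their sum was 19029 CPM in WT, 23567 in YAPKO, 15714 in TAZKO and 17749 in DKO, most of it Spp1 (13851, 17162, 11317 and 10624 CPM). The BECs numbered 54 in WT, 32 in YAPKO, 28 in TAZKO and 7 in DKO.

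HCs were all other kept cells in which Alb, Apoa1, Ttr and Apoc3 together made up at least 3% of the UMIs. They numbered 2254 in WT, 1159 in YAPKO, 3111 in TAZKO and 2925 in DKO, with median depths of 2166.5, 6457, 1854 and 6475 UMIs. Because the class is a range of a score, cells near its limit matter. In WT 96 cells lay between 2% and 3% and 52 between 3% and 4%, in YAPKO 51 and 94, in TAZKO 179 and 137, and in DKO 205 and 297. All 10 hepatocyte markers were found in each library, at a sum of 96954 CPM in WT, 90184 in YAPKO, 90870 in TAZKO and 83488 in DKO.

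Over single HCs, the median CPM of the marker sum of the other cell types was 0 in all 4 libraries for 12 of the lists, among them those of endothelial cells, Kupffer cells (KCs), hepatic stellate cells (HSCs), T cells, B cells and mesothelium. A median of 0 can hide sparse markers, and the share of HCs with a UMI of a list differed between libraries, as with the neutrophil list (10.6%, 24.2%, 1.51% and 6.32% in WT, YAPKO, TAZKO and DKO), the list of dividing cells (7.59%, 16.1%, 3.79% and 17.1%) and the erythroid list (19.2%, 37.4%, 23.8% and 30.3%), at unequal depth. The biliary sum had a median of 0 in WT and TAZKO, 312 CPM in YAPKO and 364 in DKO. The macrophage list had medians of 0, 328, 435 and 0 CPM in WT, YAPKO, TAZKO and DKO, the plasma cell list 0, 195, 0 and 147, and the plasmacytoid dendritic cell list 501, 401, 197 and 251.

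Across the cell types, the members set the BECs apart. Krt8, Krt18, Krt23, Epcam, Sox9, Sox4 and Cldn7 were highest in the BECs of all 4 libraries, and for Krt23 and Sox9 the HCs came next in all 4. The lead over mesothelial cells was within counting error for Krt18 in TAZKO (1.21 times, 0.79 to 1.92) and Sox4 in DKO (2.35 times, 0.80 to 9.35). Krt23 was 201 times as high in the BECs as in the HCs of WT (95% interval 124 to 346), 27.9 times in YAPKO (21.1 to 36.7), 165 times in TAZKO (76.7 to 394) and 24.2 times in DKO (15.5 to 36.2). For Sox9 the same ratio was 27.4 (22.5 to 33.4), 23.6 (18.9 to 29.3), 20.9 (17.8 to 24.5) and 58.9 (39.9 to 84.8). The distance between BECs and HCs thus was shorter for Krt23 in YAPKO and DKO, and longer for Sox9 in DKO, than in WT. The BECs of DKO were only 7 cells, in which a single cell held 44.1% of the Sox9 UMIs and a single cell 40% of the Krt23 UMIs.

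**Figure D1:**
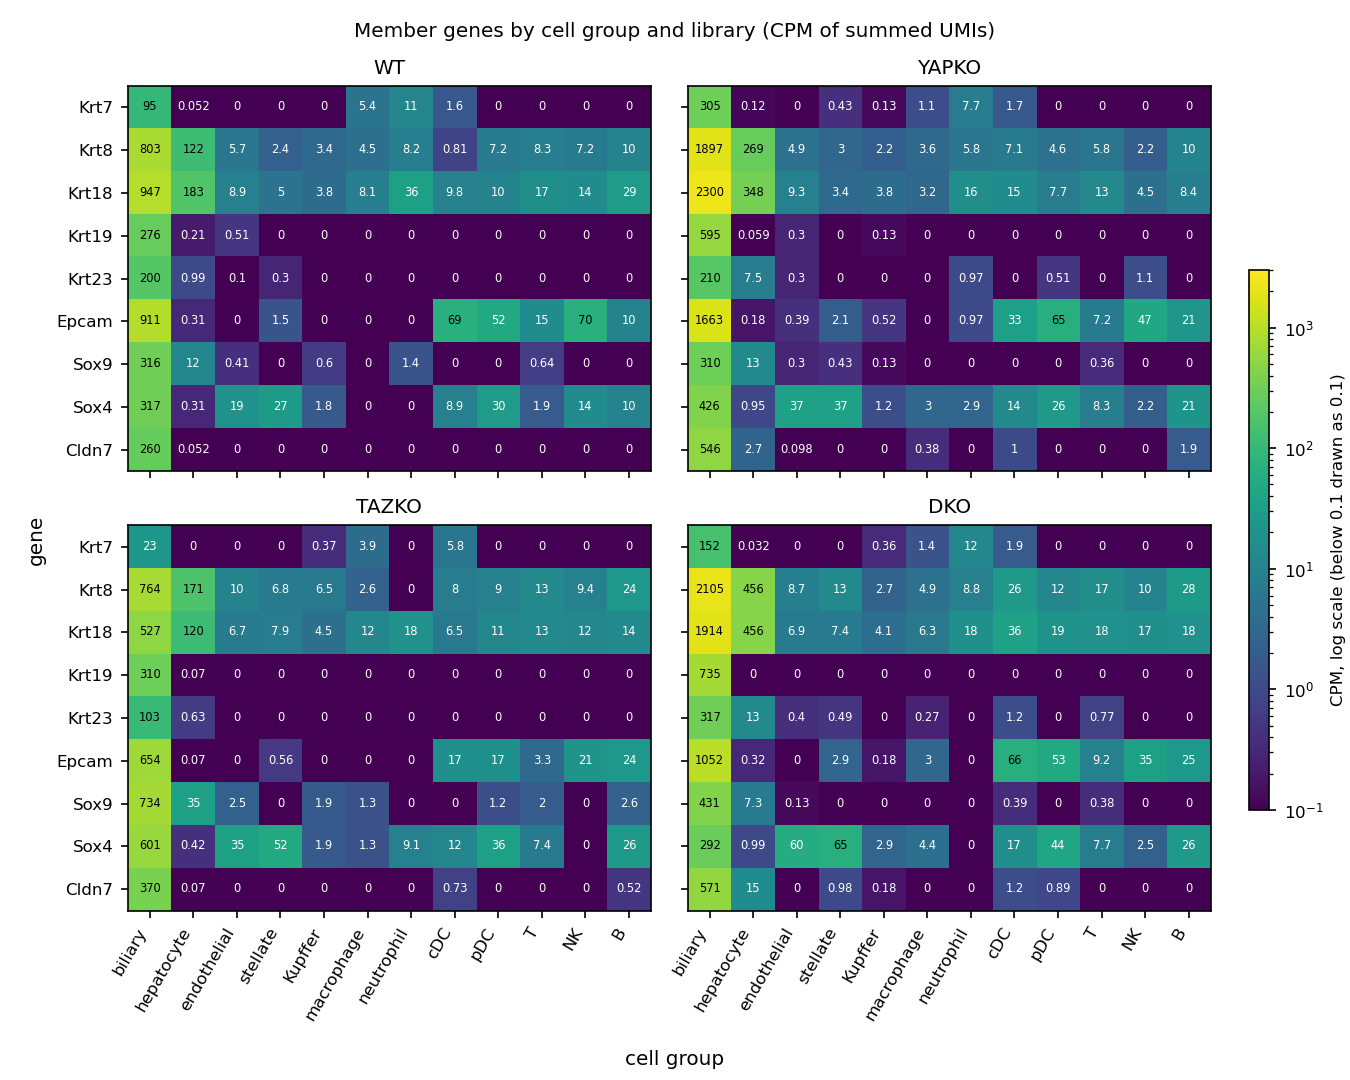
Level of each of the 9 genes (CPM, colour on a log scale) in 12 groups of cells of the WT, YAPKO, TAZKO and DKO libraries. BECs carry all 9 genes in each library, and HCs mainly Krt8 and Krt18 with lower levels of Sox9 and, in YAPKO and DKO, of Krt23 and Cldn7. Sox4 and Epcam extend to non-epithelial types. Mesothelial cells are not drawn.

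In HCs, Krt8, Krt18, Krt23 and Sox9 had enough UMIs to be measured in all 3 comparisons with WT. Of these, Krt8 and Krt23 were at least 2-fold higher in YAPKO, Sox9 in TAZKO, and Krt8, Krt18 and Krt23 in DKO. Krt7, Krt19 and Epcam had too few UMIs to be measured. Of the members, 6 had at least 20 UMIs in YAPKO and WT together, and 4 of these 6 (Cldn7, Krt23, Sox4 and Krt8) were at least 2-fold higher in YAPKO, against 8.53% of the 12451 genes with that many UMIs. In DKO, 5 of 6 (the same with Krt18) were at least 2-fold higher, against 16.1% of 13428 genes. In TAZKO, 1 of 4 members (Sox9) was at least 2-fold higher, against 27.1% of 12721 genes. No member with 20 UMIs was at least 2-fold lower in any of the 3 libraries, a group that held 1.52% of the genes in YAPKO, 1.92% in TAZKO and 2.73% in DKO. A member could reach 20 UMIs through a high knock-out library alone. Cldn7 and Sox4 were measured in YAPKO and DKO but not in TAZKO. The counts therefore hold for the members that passed and are not compared between the libraries.

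The median log2 ratio to WT of the measured members was 1.37 in YAPKO (6 members), -0.06 in TAZKO (4) and 1.78 in DKO (6). The sets differ, as Cldn7 and Sox4 were not measured in TAZKO, so that these medians are not compared between the libraries. Over all genes the median was itself above 0, at 0.39, 0.65 and 0.46. Ratios relative to that median are therefore given as well. Relative to it, at least 2-fold higher were Cldn7, Krt23 and Sox4 in YAPKO (5.31, 2.53 and 1.20) and no member in TAZKO. In DKO these were Cldn7, Krt23, Krt8 and Sox4 (7.72, 3.26, 1.44 and 1.19). At least 2-fold lower were Krt23 and Krt18 in TAZKO (-1.31 and -1.26) and Sox9 in DKO (-1.12). The share of all genes at this scaling is not given, so that these values have no background beside them.

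Krt8, the type II keratin of all simple epithelia, was 122 CPM in the HCs of WT (117 to 127), 269 in YAPKO (261 to 277), 171 in TAZKO (165 to 178) and 456 in DKO (448 to 463). All 3 knock-out libraries lay above WT, with DKO the highest. The log2 ratio to WT was 1.14 in YAPKO (1.07 to 1.21), 0.49 in TAZKO (0.41 to 0.57) and 1.90 in DKO (1.84 to 1.97). Relative to the median of all genes it was 0.75, -0.16 and 1.44, so that the direction in TAZKO turned with the scaling.

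Krt18, its type I partner, was 183 CPM in WT (177 to 189), 348 in YAPKO (339 to 357), 120 in TAZKO (114 to 125) and 456 in DKO (448 to 463). Unlike Krt8, Krt18 was lower in TAZKO than in WT. Its log2 ratio was 0.93 in YAPKO (0.87 to 0.99), -0.61 in TAZKO (-0.70 to -0.53) and 1.32 in DKO (1.26 to 1.37), and 0.53, -1.26 and 0.85 relative to the median. Among HCs with at least 10% of UMIs in the 4 hepatocyte genes, Krt18 was no longer higher in YAPKO (-0.11) and barely so in DKO (0.12).

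The balance of the pair differed between the libraries. Krt8 made up 40.0% of the Krt8 and Krt18 UMIs of the HCs in WT (38.7 to 41.3), 43.6% in YAPKO (42.6 to 44.5), 58.9% in TAZKO (57.4 to 60.4) and 50.01% in DKO (49.4 to 50.6). The balance also differed between the 2 main clusters of HCs described below, which the libraries filled differently, with 29.8% (27.9 to 31.7), 33.7% (32.4 to 34.99), 53.6% (50.5 to 56.7) and 43.4% (42.6 to 44.2) in cluster 1 and 46.9% (45.3 to 48.6), 54.2% (52.8 to 55.6), 61.4% (59.6 to 63.2) and 59.3% (58.5 to 60.2) in cluster 2. WT was the lowest and TAZKO the highest in both, and the intervals of TAZKO and DKO overlapped in cluster 2. Barcodes with fewer than 500 genes, whose content was not tested, had 31.1%, 31.8%, 53.8% and 46.7% in the same order. In endothelial cells (ECs), which are not known to use keratins, the share was 38.9% in WT, 34.5% in YAPKO, 59.6% in TAZKO and 55.9% in DKO.

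Krt23, a type I keratin that is known to rise in injured livers, was rare in the HCs of WT and TAZKO, with 19 UMIs or 0.991 CPM (0.596 to 1.55) and 9 UMIs or 0.627 CPM (0.287 to 1.19). In YAPKO 127 UMIs gave 7.51 CPM (6.26 to 8.94) and in DKO 412 UMIs gave 13.1 CPM (11.9 to 14.4). YAPKO and DKO thus stood above both other libraries. The log2 ratio to WT was 2.92 in YAPKO (2.22 to 3.70) and 3.73 in DKO (3.06 to 4.47), and 2.53 and 3.26 relative to the median. In TAZKO it was -0.66 (-1.99 to 0.55), a difference not detectable at this depth.

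Cldn7, which codes for a tight junction protein of ductal cells, showed the widest gap. The HCs of WT and TAZKO held 1 UMI each (0.0521 and 0.0696 CPM), those of YAPKO 46 UMIs or 2.72 CPM (1.99 to 3.63) and those of DKO 478 UMIs or 15.2 CPM (13.9 to 16.6). The log2 ratio to WT was 5.71 in YAPKO (3.16 to 11.04) and 8.19 in DKO (5.70 to 13.49), wide intervals that come from the single UMI of WT.

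**Figure D2:**
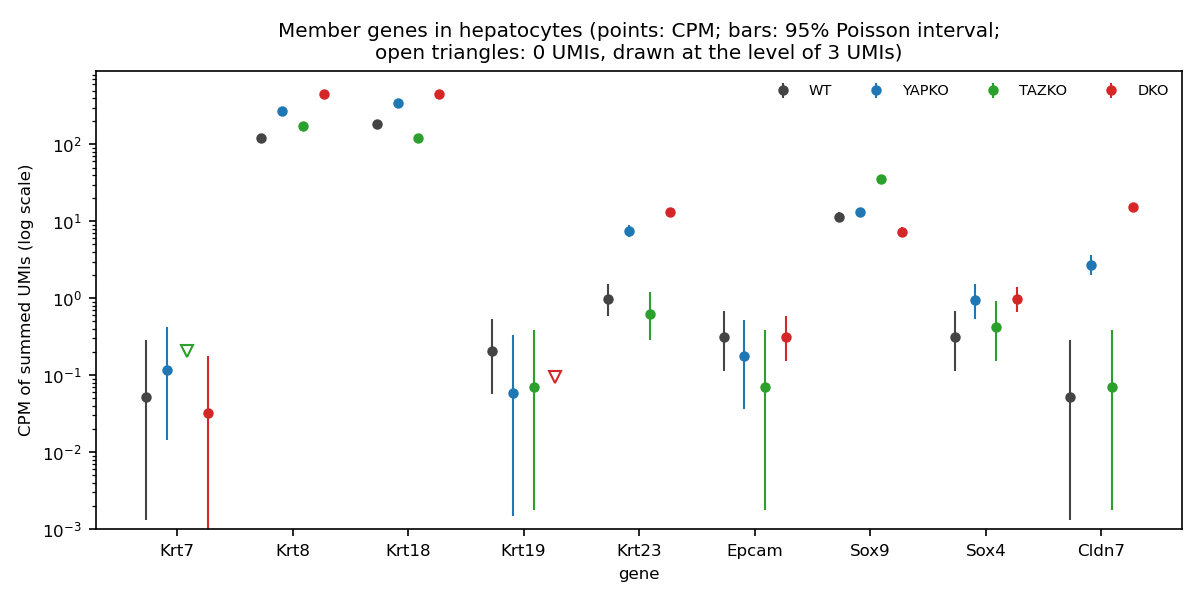
Level of each of the 9 genes in the HCs of each library (CPM, log scale), with points for the level, bars for the exact 95% Poisson interval and open triangles at the level of 3 UMIs where no UMI was found. Krt8 and Krt18 are highest in DKO, Krt23 and Cldn7 stand apart in YAPKO and DKO, and Sox9 is highest in TAZKO at 35.1 CPM.

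The remaining genes of the adult duct stayed near 0 in HCs. Krt19, the type I keratin used to stain bile ducts, had 4 UMIs in WT, 1 in YAPKO, 1 in TAZKO and 0 in DKO, the last allowing up to 0.0954 CPM, the level of 3 UMIs. Krt7, its type II counterpart, had 1, 2, 0 and 1 UMIs, and Epcam, a surface adhesion molecule of BECs, had 6, 3, 1 and 10. None of the 3 reached 20 UMIs with WT in any comparison.

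The transcription factors went separate ways. Sox9 was 11.5 CPM in the HCs of WT (10.1 to 13.1), 13.1 in YAPKO (11.5 to 14.98), 35.1 in TAZKO (32.1 to 38.3) and 7.31 in DKO (6.40 to 8.32), and was thus high in TAZKO and low in DKO. Its log2 ratio was 0.19 in YAPKO (-0.09 to 0.46), 1.61 in TAZKO (1.38 to 1.84) and -0.66 in DKO (-0.93 to -0.38). Relative to the median it was -0.21, 0.96 and -1.12, so that the sign in YAPKO turned, as it did with the 50 highest genes left out of the total (-0.03). The sign of Sox9 in YAPKO held in 8 of 13 alternatives. They ran from -0.56, with the limits on genes per cell read as UMIs, to 0.82 at the 10% rule for HCs. Sox4 had only 6 UMIs in WT, 16 in YAPKO, 6 in TAZKO and 31 in DKO, or 0.313, 0.946, 0.418 and 0.986 CPM, with a log2 ratio of 1.60 in YAPKO (0.17 to 3.24) and 1.66 in DKO (0.37 to 3.21). In the HCs under 5000 UMIs the Sox4 ratio of DKO was -0.94 (-6.83 to 3.32).

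The HCs fell mostly into clusters 1 and 2, and the libraries filled these differently. Cluster 1 held 1807 of the HCs in WT, 566 in YAPKO, 1713 in TAZKO and 1789 in DKO, and cluster 2 held 360, 543, 1139 and 924. Cluster 2 had 9 of 10 hepatocyte markers raised. Cluster 1 was led by Gsta1, Gstm3, Gsta2, Gsta4 and Krt18, had 2 of 10 raised and stayed unnamed, and its cells were shallow and poor in mitochondrial UMIs. Its median depth was 2002 UMIs in WT, 3726 in YAPKO, 1343 in TAZKO and 5021 in DKO, against 40345, 26315, 4073 and 21512.5 in cluster 2, and mitochondrial genes made up 0.324%, 0.349%, 0.724% and 0.274% of its UMIs, against 3.99%, 4.51%, 4.41% and 4.06%. The nuclear RNA Malat1 was 1710, 339, 6832 and 242 CPM in cluster 1 and 3454, 3698, 5545 and 5050 CPM in cluster 2. Clusters 17 and 19 together held 14, 30, 99 and 143 HCs, and all other clusters 73, 20, 160 and 69. The part of these differences in the ratios to WT was not tested.

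Within each cluster, Krt8, Krt23 and Cldn7 were again higher in YAPKO and DKO than in WT. Krt8 in cluster 1 was 122 CPM in WT, 658 in YAPKO, 196 in TAZKO and 635 in DKO, and in cluster 2 it was 123, 198, 166 and 363. The log2 ratio of Krt8 in YAPKO was 2.43 in cluster 1 and 0.68 in cluster 2, and in DKO 2.38 and 1.56. Krt18 in cluster 1 was 288, 1295, 169 and 829 CPM and in cluster 2 140, 167, 104 and 249, so that its ratio in YAPKO was larger in cluster 1 (log2 2.17) than in cluster 2 (0.26).

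Krt23 was 1.13 CPM in cluster 1 of WT, 20.7 in YAPKO, 0.718 in TAZKO and 15.6 in DKO, and 0.968, 5.06, 0.384 and 11.9 in cluster 2. Cldn7 in cluster 1 had 1 UMI in WT, 29 in YAPKO, 0 in TAZKO and 213 in DKO. In cluster 2, where WT had 0 Cldn7 UMIs, YAPKO had 15 and DKO 260, which was at least 4.78-fold and 59.1-fold higher than the level of 3 UMIs in WT. Sox9 lay mostly in cluster 2, with 15.3 CPM in WT, 15.2 in YAPKO, 38.2 in TAZKO and 9.91 in DKO, and was 2.44, 3.45, 28.4 and 3.14 in cluster 1. Sox9 was the highest in TAZKO in both clusters, whereas its lower level in DKO was seen in cluster 2 (log2 -0.62) and not in cluster 1 (0.37, -0.59 to 1.41).

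**Figure D3:**
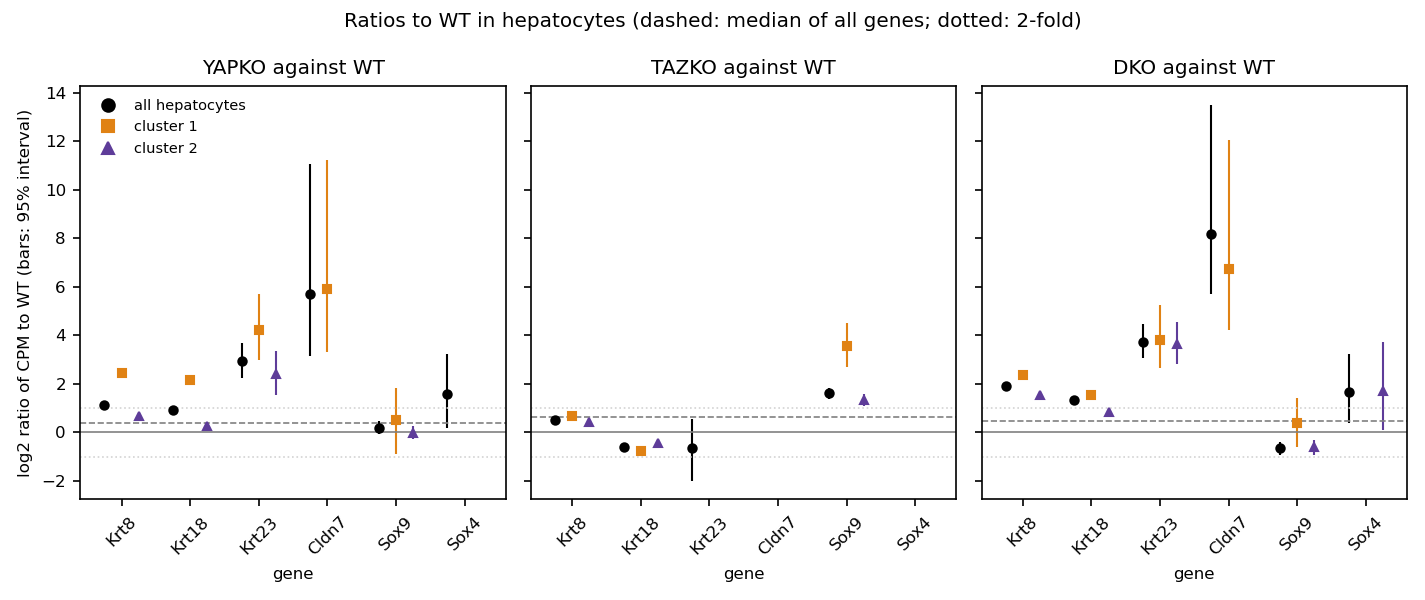
Log2 ratio to WT of the members in all HCs and in the HCs of clusters 1 and 2, with exact 95% intervals, the median of all genes as a dashed line and 2-fold changes as dotted lines. Krt23 and Cldn7 lie beyond 2-fold in YAPKO and DKO in each set shown, and Cldn7 in cluster 2 is not drawn because WT had 0 UMIs there.

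The share of HCs with a UMI depends on depth, and each cell was therefore thinned to 2000 UMIs, which left out 935 HCs of WT, 144 of YAPKO, 1679 of TAZKO and 334 of DKO. A Krt8 UMI was then found in 20.2% of the HCs of WT (18.03 to 22.4), 45.5% in YAPKO (42.4 to 48.6), 29.9% in TAZKO (27.5 to 32.3) and 57.2% in DKO (55.3 to 59.1), against 35.6%, 81.7%, 37.1% and 83.5% before thinning. For Krt18 the thinned shares were 31.8%, 52.4%, 23.2% and 56.4%, and the unthinned 50.4%, 83.9%, 32.3% and 82.5%. YAPKO and DKO were above WT for both genes at equal depth over all HCs, but in cluster 2 the thinned share of Krt18 was 26.5% in WT (21.9 to 31.5), 24.6% in YAPKO (20.97 to 28.6) and 28.8% in DKO (25.9 to 31.9). Thinning also changed the mix of clusters, as it kept 909 HCs of cluster 1 and 344 of cluster 2 in WT, 475 and 520 in YAPKO, 300 and 957 in TAZKO, and 1635 and 888 in DKO.

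Krt23 was found after thinning in 0.0758% of the HCs of WT, 1.97% in YAPKO, 0.140% in TAZKO and 2.51% in DKO (unthinned 0.665%, 7.68%, 0.257% and 11.1%). Cldn7 was found in 0.887% in YAPKO and 3.20% in DKO, and in 0 of 1319 HCs of WT and 0 of 1432 of TAZKO, with upper limits of 0.279% and 0.257% (unthinned 0.0444%, 2.93%, 0.0321% and 8.62% in the order WT, YAPKO, TAZKO and DKO). A separate draw for cluster 1 alone did find 1 WT cell with Cldn7. Sox9 was found in 1.67%, 1.97%, 6.42% and 1.04%, and in 6.88%, 14.3%, 11.03% and 5.61% before thinning. For Krt8, Krt18 and Sox9, the order of the libraries in the thinned shares was that of the levels.

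B cells served as a background group, in which the part of free RNA was not tested, at median depths of 2926.5 UMIs in WT, 2862 in YAPKO, 2813 in TAZKO and 2150 in DKO before thinning. After thinning, 2.72%, 1.49%, 4.29% and 4.57% of them had a Krt8 UMI and 5.43%, 1.98%, 2.73% and 4.11% a Krt18 UMI. No thinned B cell had a Krt23 UMI, and Cldn7 and Sox9 were found in TAZKO alone, in 0.195% and 0.390%. The shares of the HCs were above those of B cells for Krt8 and Krt18 in each library, for Krt23 in YAPKO and DKO and for Cldn7 in DKO. For Cldn7 in YAPKO they were not told apart, as 0 of 404 thinned B cells has an upper limit of 0.909% and all B cells of YAPKO together had 3 Cldn7 UMIs or 1.94 CPM (0.399 to 5.66).

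**Figure D4:**
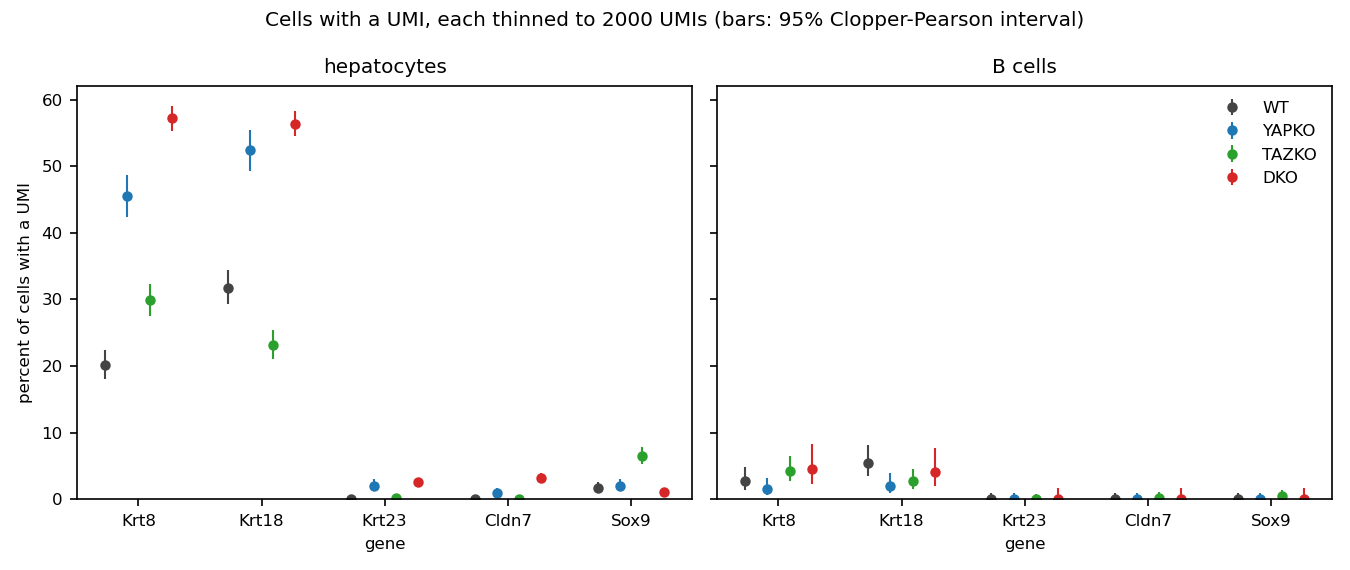
Share of HCs and of B cells with a UMI of Krt8, Krt18, Krt23, Cldn7 or Sox9 after thinning to 2000 UMIs, with exact 95% intervals. HCs of YAPKO and DKO lie above WT for Krt8, Krt18, Krt23 and Cldn7, and B cells stay at or below 5.43% throughout.

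The UMIs were spread over many HCs. The Krt8 UMIs of WT were found in 803 cells, of which 142 held 50% of them, and those of DKO in 2442 cells, of which 409 held 50%. For Krt23, 27 cells of YAPKO and 118 of DKO held 50% of the UMIs, and for Cldn7 11 and 59. The biliary marker Spp1, by comparison, had 50% of its UMIs in 15 HCs of YAPKO and in 4 of DKO. Krt23 and Cldn7 in HCs thus were not the property of a few cells in DKO.

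At least 1 of the 7 members other than Krt8 and Krt18 was found in 8.0% of the HCs of WT, 22.7% in YAPKO, 11.5% in TAZKO and 21.9% in DKO, and after thinning in 2.05%, 4.93%, 6.70% and 6.72%. In thinned B cells the shares were 3.95%, 4.70%, 7.99% and 5.48%, above the HCs in WT and TAZKO, so that this count does not set HCs apart. The genes behind the count differed, as the B cells of each library held Epcam and Sox4 UMIs but no Krt23 UMI. It is therefore no background for single members. At least 3 of the 7 were found in 1 HC of WT, 8 of YAPKO, 0 of TAZKO and 15 of DKO. Of the 15 in DKO, 14 carried Krt23, 14 Cldn7, 13 Sox9, 1 Epcam and 0 Krt7 or Krt19, and their median depth was 27061 UMIs. Of the 8 in YAPKO, at a median of 29094 UMIs, 7 carried Krt23, 5 Cldn7, 6 Sox9, 2 Epcam, 0 Krt19 and 2 Krt7, which no other HC of YAPKO carried. In DKO, 18.5% of the HCs with a Krt23 UMI also had a Cldn7 UMI, against 7.38% of the others. Deeper cells show more of both genes, and after thinning only 2 of all HCs had both, or 5 in cluster 1 and 2 in cluster 2 in separate draws, too few to compare.

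Biliary markers other than the members also differed in the HCs. Of the 14, 10 had a UMI in WT, 13 in YAPKO, 11 in TAZKO and 12 in DKO, and their sum was 200 CPM in WT, 555 in YAPKO, 219 in TAZKO and 545 in DKO. The most abundant was Tm4sf4 in WT (96.6 CPM), TAZKO (122) and DKO (384), and Spp1 in YAPKO (226). Among the markers at 0, Cftr, a chloride channel of bile ducts, was at 0 in all 4 libraries, Ehf in WT, TAZKO and DKO, and Sctr in WT and TAZKO. Without HCs that carried 4 or more of the 14 markers, an alternative chosen after the data were seen, the log2 ratio of Krt23 was 2.76 in YAPKO and 3.63 in DKO, that of Cldn7 5.13 and 7.72, and that of Sox4 0.63 and 1.69, so that Sox4 was no longer 2-fold higher in YAPKO.

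Genes around the members were read from lists, beside which the shares of all genes at least 2-fold higher were 8.53% in YAPKO, 27.1% in TAZKO and 16.1% in DKO. Of 10 transcription factors listed as ductal, not all of which had UMIs in the BECs, 5 had 20 UMIs in YAPKO with WT, 4 in TAZKO and 6 in DKO. At least 2-fold higher were 2, 1 and 2 of them, with 1 lower in YAPKO and in DKO. The 2 in DKO included Tcf21, with 4 UMIs in WT and 16 in DKO, which had 0 CPM in the BECs of each library and so is not ductal here. Elf3, an epithelial factor, was 0.313 CPM in WT, 2.48 in YAPKO, 0.0696 in TAZKO and 1.05 in DKO (log2 2.99 in YAPKO and 1.75 in DKO). Onecut1, a factor of both liver lineages, was 25.8, 8.40, 16.3 and 12.3 CPM and was lower in all 3 libraries (-1.62, -0.66 and -1.06). The list had a median of 0.51, 0.42 and 0.72 on the log2 scale, against 0.39, 0.65 and 0.46 for all genes.

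Of 14 ductal surface and secreted genes, 7 were measured in YAPKO, 7 in TAZKO and 8 in DKO, with 3 at least 2-fold higher in each and 3 lower in TAZKO (medians 0.75, -0.21 and 0.50). Lcn2, an iron-binding protein released on injury, was 21.6 CPM in WT, 188 in YAPKO, 6.06 in TAZKO and 103 in DKO. Spp1, the secreted protein osteopontin, was 39.2, 226, 11.9 and 22.3 CPM, high in YAPKO but lower than WT in DKO (log2 -0.81, -0.97 to -0.66). The tetraspanin Tspan8 had 2 UMIs in WT, 2 in YAPKO, 2 in TAZKO and 21 in DKO (log2 2.68, 0.65 to 5.82).

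The 12 hepatocyte transcription factors were all measured, and 1 was at least 2-fold higher in YAPKO, 5 in TAZKO and 4 in DKO, with none lower (medians 0.50, 0.95 and 0.47), and the count in YAPKO was near the 8.53% of all genes. Prox1, a factor of early liver growth, was 47.0 CPM in WT, 106 in YAPKO, 196 in TAZKO and 135 in DKO. Nr1i3, a receptor that responds to drugs, was 5.11, 7.16, 51.7 and 20.95, and Foxa1 was 7.35, 7.99, 19.2 and 8.01.

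Of 17 claudins and junction genes, 15 were measured in each comparison, and 6, 4 and 4 were at least 2-fold higher in YAPKO, TAZKO and DKO, with none lower (medians 0.64, 0.81 and 0.38), the count in TAZKO being near the 27.1% of all genes. Cldn2, a pore-forming claudin, was 4.43 CPM in WT, 12.6 in YAPKO, 26.2 in TAZKO and 24.3 in DKO, and the tight junction protein gene Ocln was 9.65, 26.2, 17.4 and 31.6. Of the 12 keratin partners, 11 were measured, and 3, 3 and 4 were at least 2-fold higher, with none lower (medians 0.81, 0.63 and 0.73). Their count in TAZKO was also near the 27.1% of all genes. Ppl, a plakin that links keratins to desmosomes, was 4.38, 13.7, 7.17 and 26.3 CPM, and the desmosomal cadherin gene Dsg2 was 39.2, 83.7, 119 and 124.

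By family, few genes of each were present in HCs, and their counts stand against 8.53%, 27.1% and 16.1% of all genes that were at least 2-fold higher in YAPKO, TAZKO and DKO. Of 55 keratin genes and pseudogenes, 4 had 20 UMIs in YAPKO with WT, 4 in TAZKO and 5 in DKO, with 2, 0 and 4 at least 2-fold higher. The members Krt8, Krt18 and Krt23 were 3 of the measured keratins in each comparison, so that this family largely repeats them. Of 35 claudin genes, 7, 6 and 7 were measured and 2, 3 and 2 were higher. Of 28 Sox genes and transcripts, 10, 9 and 11 were measured and 2, 5 and 3 were higher, with 1 lower in DKO. These counts also include members, namely Cldn7 and Sox4 in YAPKO and DKO and Sox9 in TAZKO. The medians of the families were 1.03, -0.44 and 1.32 for the keratins, 0.42, 0.99 and 0.38 for the claudins and 0.26, 1.20 and 0.34 for the Sox genes.

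In the BECs, from far fewer cells, Krt8 and Krt18 were higher in YAPKO and DKO than in WT, as in the HCs. Unlike in the HCs, Krt23 was not raised in YAPKO. Krt18 had its highest value in YAPKO, but the value of DKO came from 7 cells. A single cell held 30.5% of the Krt18 UMIs there, so that the order of these libraries is not firm. At least 2-fold higher in YAPKO were 5 of 9 members (Krt7, Krt8, Krt18, Krt19 and Cldn7), against 5.4% of 7521 genes, and 0 were lower, against 11.6%. In TAZKO 1 of 9 (Sox9) was higher, against 6.61% of 7231 genes, and 1 of 9 (Krt7) was lower, against 5.19%. In DKO 4 of 9 (Krt8, Krt18, Krt19 and Cldn7) were higher, against 8.23% of 5955 genes, and 0 lower, against 16.9%. The median of the 9 was 1.07, -0.07 and 0.68 on the log2 scale, and that of all genes was -0.06, 0.09 and -0.04.

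Krt8 was 803 CPM in the BECs of WT (734 to 877), 1897 in YAPKO (1771 to 2029), 764 in TAZKO (668 to 870) and 2105 in DKO (1797 to 2450), with a log2 ratio of 1.24 in YAPKO (1.08 to 1.40), -0.07 in TAZKO (-0.30 to 0.16) and 1.39 in DKO (1.13 to 1.65). Krt18 was 947, 2300, 527 and 1914 CPM, with log2 ratios of 1.28 (1.13 to 1.43), -0.85 (-1.11 to -0.59) and 1.02 (0.75 to 1.28). As in the HCs, Krt18 but not Krt8 was lower in TAZKO.

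Of the duct-specific keratins, Krt7 was 94.9 CPM in WT (72.0 to 123), 305 in YAPKO (256 to 361), 23.4 in TAZKO (9.39 to 48.1, from 7 UMIs) and 152 in DKO (78.6 to 266). Its log2 ratio was 1.69 in YAPKO (1.23 to 2.16), -2.02 in TAZKO (-3.40 to -0.89) and 0.68 in DKO (-0.35 to 1.59). Krt19 was 276, 595, 310 and 735 CPM, with ratios of 1.11 (0.82 to 1.39), 0.17 (-0.21 to 0.54) and 1.41 (0.96 to 1.85). In YAPKO, Krt19 stayed at least 2-fold higher in 4 of 6 alternatives. Krt23 was 200, 210, 103 and 317 CPM, and thus was not raised in the BECs of YAPKO (0.07, -0.33 to 0.47), where it was raised in the HCs.

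Epcam was 911 CPM in WT, 1663 in YAPKO, 654 in TAZKO and 1052 in DKO (log2 0.87, -0.48 and 0.21), and Cldn7 was 260, 546, 370 and 571 (1.07, 0.51 and 1.13). Sox9 was 316, 310, 734 and 431 CPM, with TAZKO the highest as in the HCs (log2 1.22, 0.93 to 1.504), and Sox4 was 317, 426, 601 and 292, also highest in TAZKO (0.92, 0.62 to 1.22). The values of DKO rest on 7 cells with 12 to 166 UMIs a gene, and 1 cell held 35 of the 58 Krt19 UMIs, or 60.3%.

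HC RNA was present in the BECs at different amounts, with a sum of the 10 hepatocyte markers of 7307 CPM in WT, 3466 in YAPKO, 10690 in TAZKO and 3803 in DKO, led by Alb in WT and TAZKO and by Ttr in YAPKO and DKO. Of the 8 mesothelial markers, only Gpm6a had UMIs in the BECs of WT, YAPKO and DKO, and 2 had them in TAZKO. Cells with UMIs of at least 4 of the 14 markers numbered 114 in WT, 154 in YAPKO, 60 in TAZKO and 111 in DKO, but many of them, and most in YAPKO and DKO, were HCs by the 3% rule, so that their levels do not describe BECs. The 8% highest doublet scores included 29.6% of the BECs in WT, 21.9% in YAPKO, 7.14% in TAZKO and 14.3% in DKO. The part of this in their levels was not tested. Without the 8% of cells with the highest doublet scores, the count of BEC members at least 2-fold higher in DKO was 1. The share of all genes at that setting is not given.

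**Figure D5:**
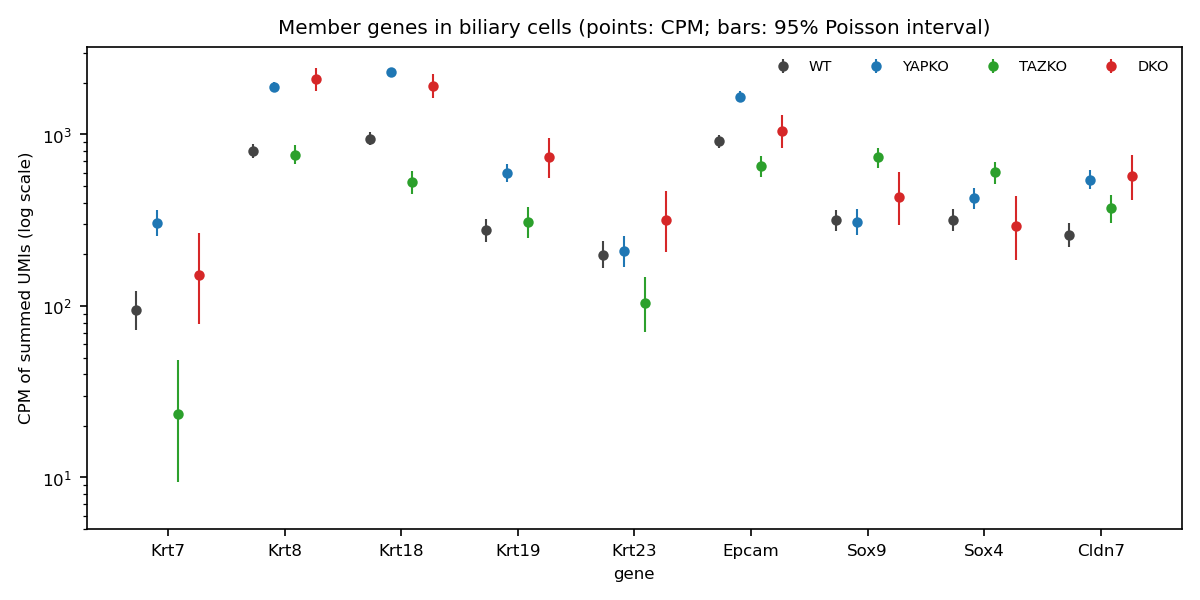
Level of each of the 9 genes in the BECs of each library (CPM, log scale), with exact 95% Poisson intervals, from 54 cells of WT, 32 of YAPKO, 28 of TAZKO and 7 of DKO. Krt8, Krt18, Krt19 and Cldn7 are higher in YAPKO and DKO than in WT, Krt7 is lowest in TAZKO, and Sox9 and Sox4 are highest in TAZKO.

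Krt19 and Krt7 were shared with the mesothelium, the epithelium that covers the liver. Only cells with at least 5 of 8 mesothelial markers were used, a rule set after cluster 21 was seen, which kept 9 of 9 cells in WT, 1 of 8 in YAPKO, 4 of 10 in TAZKO and 3 of 14 in DKO. The 8% highest doublet scores included 0% of these cells in WT, 100% in YAPKO, 50% in TAZKO and 100% in DKO, and the part of this in their levels was not tested. Krt19 was 801 CPM in these cells of WT, 831 in YAPKO, 664 in TAZKO and 403 in DKO, and in WT 2.90 times as high as in the BECs (2.23 to 3.75). Krt7 was 261, 75.5, 105 and 186 CPM, and Krt8 was 194, 378, 507 and 186. Krt23 and Sox9 had 0 UMIs in the mesothelial cells of all 4 libraries, and Cldn7 had 1 UMI, in DKO. In the HCs, the 8 mesothelial markers summed to between 0.237 and 0.469 CPM.

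Outside the epithelia, Sox4 and Epcam had the most UMIs of the members in several types. Sox4 in ECs was 19.01 CPM in WT (16.4 to 21.9), 37.2 in YAPKO (33.5 to 41.1), 34.6 in TAZKO (30.3 to 39.3) and 59.6 in DKO (54.3 to 65.4), so that WT was the lowest, with log2 ratios of 0.97, 0.86 and 1.65. In HSCs Sox4 was 27.3, 37.0, 52.5 and 65.2 CPM (0.44, 0.94 and 1.26), and in B cells 9.97, 20.6, 26.0 and 25.7. These cells keep their Yap1 and Wwtr1 alleles. In KCs Sox4 stayed between 1.17 and 2.88 CPM.

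Epcam was found in antigen-presenting cells and lymphocytes, where it is known from some dendritic and T cells. In conventional dendritic cells it was 69.2 CPM in WT (55.2 to 85.5), 33.5 in YAPKO (27.2 to 40.8), 17.4 in TAZKO (11.2 to 25.9) and 66.4 in DKO (56.9 to 77.1). Plasmacytoid dendritic cells had 52.2, 65.0, 17.5 and 52.7 CPM and NK cells 70.0, 47.1, 21.04 and 34.9. TAZKO was the lowest in these 3 types, with log2 ratios to WT of -1.99 (-2.71 to -1.32), -1.58 (-2.29 to -0.90) and -1.73 (-3.00 to -0.62). In B cells the direction was opposite, with 9.97 CPM of Epcam in WT, 21.3 in YAPKO, 23.9 in TAZKO and 24.7 in DKO.

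Krt7 was also counted in neutrophils, with 8 UMIs (10.99 CPM) in WT, 8 (7.74) in YAPKO, 0 in TAZKO and 4 (11.7) in DKO, in macrophages, with 6, 6, 3 and 5 UMIs, and in conventional dendritic cells, with 2, 5, 8 and 5 UMIs. Krt8 in B cells was 9.97 CPM in WT, 10.3 in YAPKO, 23.9 in TAZKO and 27.9 in DKO, and Krt8 in conventional dendritic cells 0.814, 7.10, 7.98 and 26.3. DKO had the highest value in both types, as in the HCs, but in B cells the values of TAZKO and DKO were close. The part of free RNA in these levels was not tested.

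The genes most like each member were read from the correlation of log2 levels over 51 points, each a cell type in a library, among 15998 genes. The points share libraries, and the BECs weigh heavily in them. Krt19 was most like Tspan8 (r = 1.00), Cldn6 and Fermt1, Cldn7 most like Prr15l (1.00), Plet1 and Elf3, and Krt23 most like Plet1 (0.99), Chmp4c and Prr15l. Krt8 and Krt18 were both most like Tstd1 (0.97 each), and with each other gave 0.97. Among the genes most like Sox9 were Serinc2 and Gm45457 (0.99 each). Krt7 was most like Sftpd (0.94), Gm609 and Ctxn1, Sox4 most like Syt7 (0.93), Epb41l4a and Glis2, and Epcam most like St14 (0.90), Chrnb1 and Ap1m2. Among the members themselves, r ranged from 0.46 for Krt18 and Sox4 to 0.99 for Cldn7 and Krt19.

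Some cells were left out of the named types by rules set after the clusters were seen. Cells of clusters in which more than 50% met the 3% rule, but which did not meet it themselves, numbered 13 in WT, 75 in YAPKO, 74 in TAZKO and 181 in DKO (0.182%, 1.20%, 0.857% and 2.18% of the kept cells). Cells of other unnamed clusters made up 4.86%, 7.51%, 4.87% and 6.32%. Among these were clusters 14, 15 and 16, which matched the lists of dividing cells, T cells and neutrophils. They stayed unnamed because 64.7%, 77.6% and 51.1% of their cells were among the 8% highest doublet scores.

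The values describe 1 liver per genotype, so that a difference between libraries cannot be told apart from a difference between mice, preparations or sequencing runs. All 3 comparisons share the WT library, and an unusual WT value would enter each of them. HCs differed between libraries in depth and in the filling of clusters 1 and 2, the part of free RNA was not tested, and BECs were few, above all in DKO. Counts of 3' tags measure neither protein nor the place of a cell in the tissue. Epcam, Krt7, Krt19 and Sox4 in HCs were too rare for small changes to be seen.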

How the data were processed

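The deposited UMI counts were used as provided by the authors, in 4 matrices (Cell Ranger 6.0.1 in the processing notes, 4.0.0 in the matrix header). Cells with 500 to 6000 genes and at most 10% mitochondrial UMIs were kept. Clusters came from 2000 variable genes without the 9 members, 20 components, Harmony and Louvain, and were named by marker lists. Doublet scores were computed, but cells were removed by them only in an alternative. The members were taken by symbol, and the members and gene lists were chosen with earlier results from these data known. From each list, the 3 genes with the largest changes were eligible to be named. The rules for mesothelial cells, hepatocyte-rich clusters, clusters of high doublet scores and 5 alternatives were set after the data were seen. Ratios were called at 2-fold with at least 20 UMIs. Tools were Python 3.11.15, numpy 2.4.6, scipy 1.17.1, pandas 2.3.3, scanpy 1.11.5, scikit-learn 1.9.0, igraph 0.11.9 and matplotlib 3.10.9.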

Additional observations from a re-analysis of the deposited data

How the results depend on the processing

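No paired analysis was possible because each genotype was 1 library from 1 mouse. The counts of members below are given without the share of all genes at each alternative. A lost or gained call is therefore not set against all genes. In HCs of YAPKO, 4 members were at least 2-fold higher, but 0 of 3 with at least 10% of UMIs in the 4 hepatocyte genes (where Krt23 stayed at log2 2.54, 0.54 to 5.06, with too few UMIs to count), 1 in cluster 2 alone (where Cldn7 had too few UMIs) and 2 in HCs with at least 5000 UMIs, and 1 was lower without a minimum count. In TAZKO the 1 higher member became 0 with median scaling, and 0 lower became 2 with median scaling, 3 without a minimum and 2 at 1.5-fold. In DKO the 5 higher became 2 at the 10% rule, and 0 lower became 1 with median scaling, without a minimum and at 1.5-fold. The log2 ratio of Sox4 in DKO reversed to -0.94 in HCs under 5000 UMIs. Taking cells with at least 4 of 14 markers in place of the BEC cluster brought in many HCs, most of the cells in YAPKO and DKO, so that these values do not describe BECs: 0 members were higher in YAPKO (5 before), 2 in TAZKO (1) and 1 in DKO (4), 5 were lower in DKO (0), and Krt19 in DKO reversed to -1.57. The shares of these cells were 1.59%, 2.45%, 0.695% and 1.34% in WT, YAPKO, TAZKO and DKO. Without the highest doublet scores, 3 members were lower in TAZKO (1), 1 was higher in DKO, and the WT share was 0.562%. Limits read as UMIs gave no biliary cluster. In HCs they moved the log2 ratio of Krt23 to 6.92 in YAPKO, 6.82 in DKO and 0.94 in TAZKO, and that of Sox9 in YAPKO to -0.56. Settings by cluster and by 5000 UMIs were chosen after the data were seen.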
